A study of Mus musculus with 8 samples.

Results

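Lysosomal hydrolases and membrane proteins were examined as a list of 36 named genes in esophageal epithelial cells sorted by their content of autophagic vesicles. The members were taken by gene symbol from the deposited counts, and 36 of 36 were found among 55276 symbols. All 36 also passed the filter on low counts that left 17344 genes for testing. The list covers glycosidases, sulfatases, lipid hydrolases, activator proteins, thioesterases, a peptidase and proteins of the lysosomal membrane. Cathepsins and the proton pump were not on it.

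Lysosomes are acidic compartments in which enzymes break down the contents of endosomes and autophagosomes. Most of their soluble enzymes receive a mannose 6-phosphate tag in the Golgi and are delivered by receptors, while heavily glycosylated membrane proteins line the limiting membrane and carry the products of digestion back to the cytosol. In stratified epithelia, lysosome-related lamellar granules also carry lipids and hydrolases to the cell surface.

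The cells came from the esophageal epithelium of C57BL6 mice aged 14 to 15 weeks. Cells that excluded DAPI and stained for integrin beta-1 were sorted on Cyto-ID, a fluorescent dye of autophagic vesicles, into a dim (Low) and a bright (High) fraction. The 4 Cyto-ID Low and 4 Cyto-ID High libraries came from 2 female and 2 male animals (Female1, Female2, Male1, Male2), each of which gave 1 library of either fraction. All libraries shared the strain, the integrin beta-1 gate and the dissociation, and the labels name no further genotype or agent. The libraries held 26285150 to 28599954 counts in Cyto-ID Low and 27486049 to 29301054 in Cyto-ID High.

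The labels call the cells basal, and the 8 basal keratinocyte markers (among them Krt5, Krt14 and Trp63) were all lower in Cyto-ID High, with a summed level of 20926 to 24802 CPM (counts scaled to the size of the library) in Low and 2722 to 4461 in High. The 8 suprabasal markers (among them Krt4, Krt13 and Ivl) were all higher, at 8593 to 25426 CPM in Low and 140092 to 240579 in High. Markers of leukocytes and macrophages summed to 88.6 to 139 CPM in Low and 26.3 to 164 in High, and 1 of these 12 was higher and 1 lower. The higher one was Cd68, itself a lysosomal membrane protein, at 4.45 ± 0.65 CPM in Low and 19.6 ± 5.14 in High (SD, n = 4 each). Fibroblast markers summed to 312 to 484 CPM in Low and 36.9 to 464 in High, and muscle markers to 34.5 to 56.7 and 4.58 to 51.4. Of these, Dcn (a fibroblast proteoglycan, log2 fold change −2.87) and Acta2 (smooth muscle actin, −1.54) were lower in High (edgeR, adjusted p under 0.05). The endothelial markers summed to 13.3 to 26.9 CPM in Low and 1.49 to 33.6 in High. High Male2 was the lowest library for each of the leukocyte, fibroblast, endothelial and muscle lists. Gastric markers reached 19.4 CPM in Low and 118 in High of Female2, against at most 1.39 in the other 6 libraries. Dissociation stress genes summed to 15305 to 19092 CPM in Low and 9960 to 21058 in High, and of these 10 Jun (−0.84) and Atf3 (−0.96) were lower and Ier2 (0.62) higher. No marker of these lists was at 0 in all 8 libraries. The part of these differences in cell makeup in the values below was not tested. In bulk samples, fewer cells of a type and less RNA per cell cannot be told apart.

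Promoter sequences are shown because many lysosomal genes are known to carry the CLEAR element, which reads G, then TCACGTG, then AC, and is known to be bound by TFEB and its relatives. RefSeq promoter windows (build GRCm38.p6, 250 bases before to 50 after the start) were at hand for 32 of the 36 members and were searched on both strands. The 7 bases TCACGTG, which contain CACGTG, were found in 8 of the 32 members (25%), against 4.29% of all 27025 genes with a window and 6.64% of the 11257 among them that were tested. The 6 bases CACGTG alone were also found in 8 members (25%), against 8.09% of all genes and 11.3% of tested genes. The whole element was found in 1 member, Cln3 (3.12%), against 0.37% and 0.72%. The stretches below are printed on the strand of the gene, with TCACGTG or its reverse complement CACGTGA in capitals.
Lamp1, chr8:13159061-13159160, plus strand: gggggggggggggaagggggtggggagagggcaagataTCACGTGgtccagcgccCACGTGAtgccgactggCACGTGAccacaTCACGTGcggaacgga
Cln3, chr7:126583342-126583367, minus strand: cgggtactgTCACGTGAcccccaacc
Gla, chrX:134601184-134601209, minus strand: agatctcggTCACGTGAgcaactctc
Glb1, chr9:114401020-114401045, plus strand: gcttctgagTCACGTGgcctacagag
Arsa, chr15:89477425-89477450, minus strand: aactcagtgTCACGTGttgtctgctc
Sgsh, chr11:119355524-119355549, minus strand: gcctgccgtgCACGTGAccgtgggga
Naglu, chr11:101070011-101070036, plus strand: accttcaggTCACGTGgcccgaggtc
Gaa, chr11:119267813-119267838, plus strand: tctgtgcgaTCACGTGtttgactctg
Smpd1, chr7:105554260-105554359, plus strand: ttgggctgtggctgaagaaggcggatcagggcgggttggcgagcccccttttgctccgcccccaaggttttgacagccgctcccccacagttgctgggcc
Lamp1 held 4 copies of CACGTG between positions −61 and −15 before its start, all of them within TCACGTG, and no other member held as many. Cln3 held 2 in the second of its windows, at −149 and −121, and Gla held 2, at −227 and −194. The remaining 5 members held 1 each, at −140 (Gaa), −73 (Naglu), −48 (Glb1), −29 (Sgsh) and −16 (Arsa). Smpd1, the member with the largest difference between the fractions, held none in its window, and its 100 bases before the start are shown for comparison. Of the 8 members with a match, Lamp1 and Cln3 were higher in Cyto-ID High, Sgsh and Gaa were lower, and Gla, Glb1, Arsa and Naglu did not pass the test. As a share, the sequence was in 15.4% of the 13 higher, 28.6% of the 7 lower and 33.3% of the 12 other members with a window. A match describes letters in a window and not a bound site.

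Cyto-ID High was compared with Cyto-ID Low by edgeR's quasi-likelihood test with sex as a covariate. An adjusted p (Benjamini-Hochberg, over all 17344 genes) under 0.05 was taken as a difference. Libraries were scaled by TMM, the trimmed mean of log ratios between them, and log2 fold changes are High over Low on that scale unless total counts are named. Of the 36 members, 15 were higher in Cyto-ID High (41.7%), where 23.4% of all tested genes were higher. Another 8 were lower (22.2%), where 25.3% of all genes were lower, and 13 did not pass. In either direction, 48.7% of all tested genes passed. With the animal as a block in the fit, 15 members were higher (25.4% of all genes) and 9 lower (28.5% of all genes), the added one being Galc. The median log2 fold change of the members was 0.15, and that of all tested genes was −0.09. The log2 fold change was positive for 21 members (58.3%), against 45.5% of all genes. The 4 High libraries lay above the 4 Low libraries for 15 members, where 23.6% of all genes did so, and below them for 7, where 24.9% did.

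The members' counts depended on the scaling of the libraries. Krt4 and Krt13 together took 0.858 to 2.53% of all counts in Low and 10.8 to 14.0% in High, and the TMM factors were 1.22 ± 0.065 in Low and 0.828 ± 0.118 in High (SD, n = 4 each). With libraries scaled by total counts alone, the median of all genes moved by −0.55 to −0.64, and that of the members from 0.15 to −0.43. On that scale 7 members were higher (19.4%, against 12.6% of all genes) and 17 lower (47.2%, against 49.1%). The members took 0.256 to 0.306% of all counts in Low and 0.270 to 0.301% in High, so their summed share overlapped between the fractions. Scaled by TMM, their sum was 2075, 2352, 2228 and 2533 CPM in Low (Female1, Female2, Male1 and Male2) and 2995, 3804, 3303 and 3976 CPM in High, without overlap.

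Under every alternative tried, total counts included, 12 members kept both their direction and their call. Those higher were Lamp1, Ctns, Npc1, Smpd1, Fuca1, Ppt1 and Ppt2, and they were the same 7 genes called higher with total counts. Those lower were Idua, Sgsh, Arsb, Gusb and Gaa. Total counts moved the log2 fold change of every member down. That alternative could therefore not turn the lower genes, and it tried only the higher ones. The share of all tested genes that kept a call under every alternative was not taken. The level of these 12 genes in each library and the fold changes of all 36 are plotted by role.

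**Figure D1:**
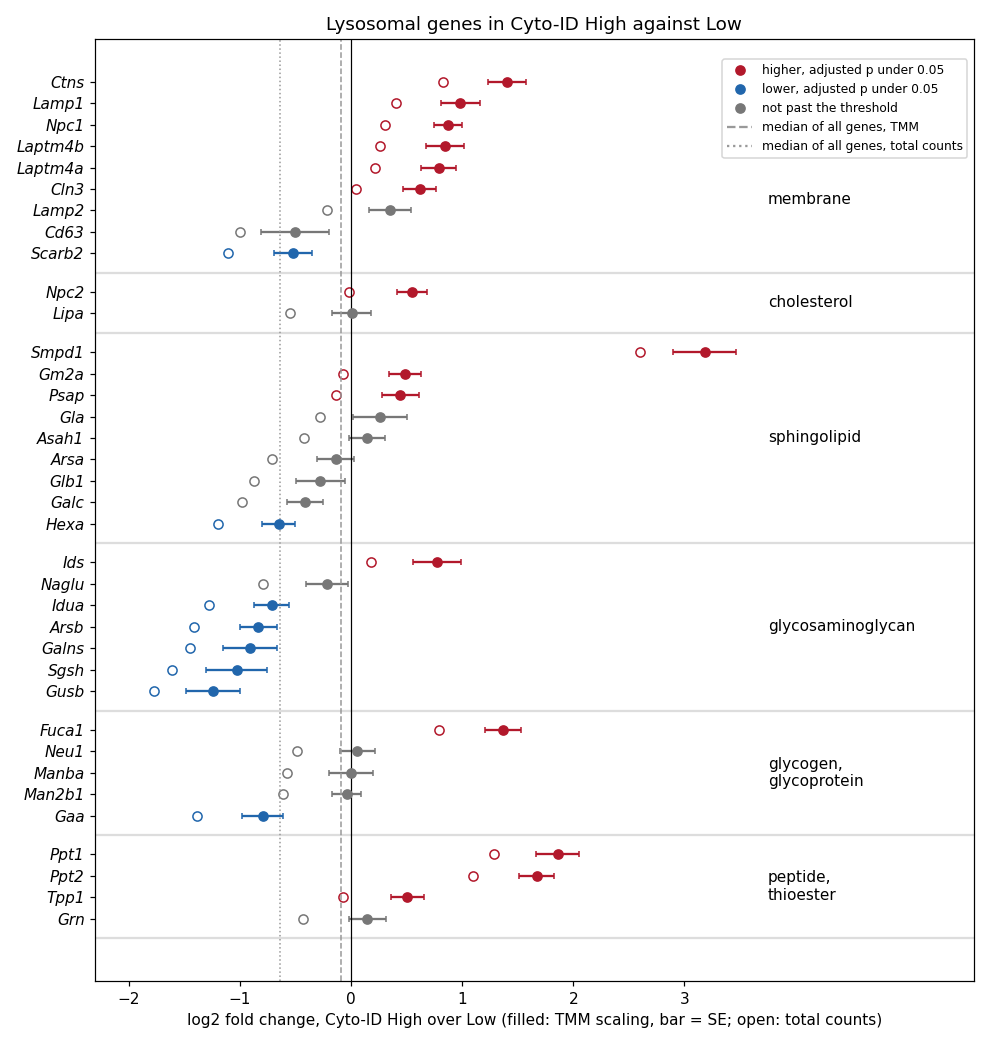
Log2 fold change of the 36 members, Cyto-ID High over Low, by role, with filled points for TMM scaling (bars are standard errors) and open points for total counts; red and blue mark members higher or lower at an adjusted p under 0.05 with TMM, and the vertical lines are the medians of all tested genes (−0.09 and −0.64). Smpd1 stands at 3.18 and Gusb at −1.24, and every open point lies to the left of its filled one.

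**Figure D2:**
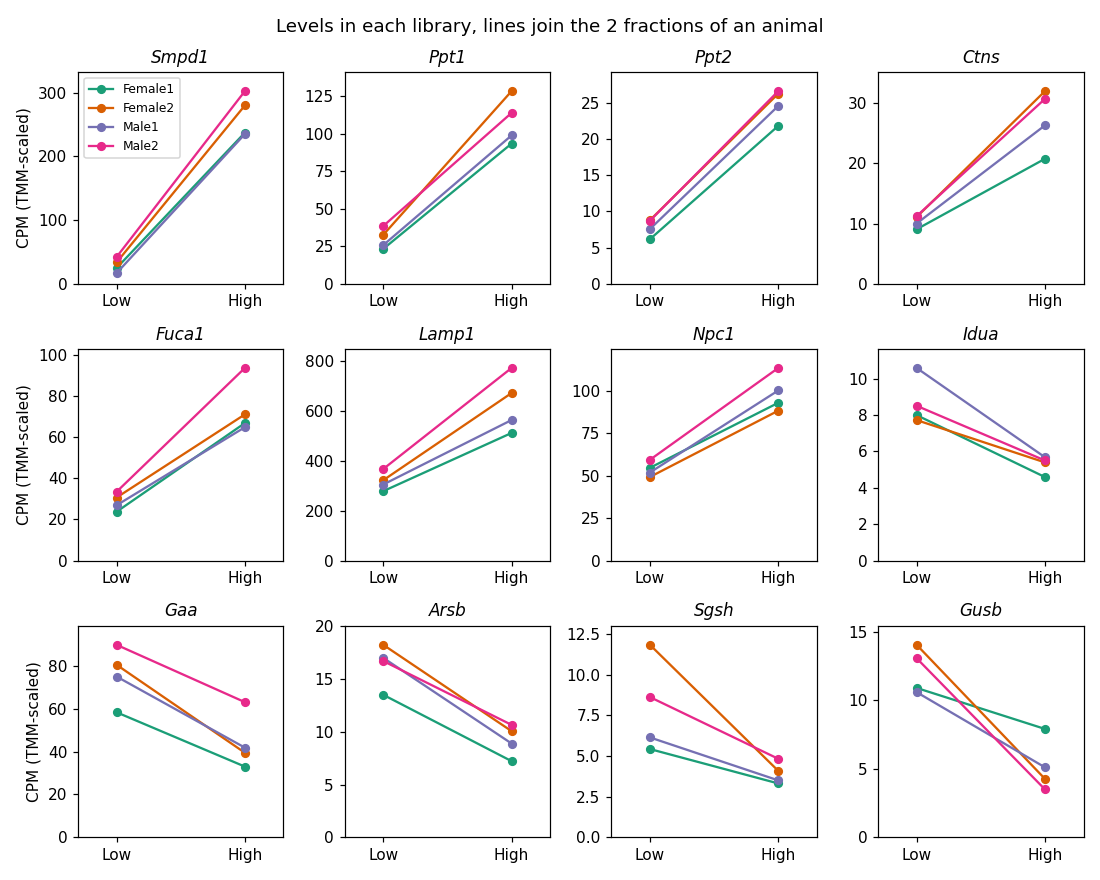
CPM (TMM-scaled, linear axis from 0) of the 12 members whose call held under every alternative, in the 4 Low and 4 High libraries, with lines joining the fractions of 1 animal. In each panel all 4 lines slope the same way, and only for Gaa do the fractions overlap (33.0 to 63.0 CPM in High, 58.3 to 89.7 in Low).

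Among the 9 genes of the lysosomal membrane, 6 were higher in Cyto-ID High, 1 was lower and 2 did not pass, with a median log2 fold change of 0.79. The shares of 66.7% higher and 11.1% lower stand beside 23.4% and 25.3% of all tested genes. With total counts 3 were higher (33.3%, against 12.6% of all genes) and 2 lower (22.2%, against 49.1%), with a median of 0.22. Lamp1 (chr8:13159161-13175338, GRCm38) encodes a main glycoprotein of the limiting membrane. Its level was 278, 322, 305 and 367 CPM in the Low libraries of Female1, Female2, Male1 and Male2, and 511, 671, 563 and 772 CPM in their High libraries. All High libraries lay above all Low libraries, and the log2 fold change was 0.99 (edgeR SE 0.18, adjusted p = 0.00121), or 0.40 with total counts. Exons of Lamp1 share 9.31% of their bases with Grtp1 on the other strand, and whether the counting used strand is not given in the sources used here.

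Lamp2 (chrX:38401357-38456454) encodes the related glycoprotein that also serves as a receptor in chaperone-mediated autophagy. It was at 260, 328, 301 and 341 CPM in Low and at 316, 497, 410 and 342 CPM in High. The fractions overlapped, and its log2 fold change of 0.35 (SE 0.19) did not pass the test (edgeR adjusted p = 0.158) and was −0.22 with total counts. Within each library, the log2 ratio of Lamp1 to Lamp2 counts was 0.05 ± 0.06 in Low and 0.69 ± 0.34 in High (SD, n = 4 each). It was higher in High in 4 of 4 animals.

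Ctns (chr11:73183596-73199042) encodes cystinosin, which exports cystine from the lysosome. Its level was 9.05, 11.1, 10.0 and 11.2 CPM in Low and 20.8, 32.0, 26.3 and 30.7 CPM in High. Each High library was above each Low library, by a log2 fold change of 1.41 (edgeR SE 0.17, adjusted p = 0.000118). Laptm4a (chr12:8921664-8938742), a small transmembrane protein of late endosomes and lysosomes, was at 185, 186, 200 and 218 CPM in Low and at 294, 409, 320 and 338 CPM in High. It did not overlap between the fractions either, with a log2 fold change of 0.79 (edgeR SE 0.16, adjusted p = 0.00237) that was 0.22 and not past the test with total counts. The related Laptm4b was higher by 0.85 and Cln3, the membrane protein altered in juvenile Batten disease, by 0.62, and these too did not pass with total counts (0.26 and 0.04).

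Npc1, counted among the 9, moves cholesterol through the lysosomal membrane. It was higher by a log2 fold change of 0.87 (edgeR SE 0.13, adjusted p = 0.000335), at 49.2 to 59.3 CPM in Low and 88.2 to 113 in High. Its soluble partner Npc2, which binds cholesterol in the lumen, was higher by 0.55 with TMM and stood at −0.02 with total counts. Lipa, the acid lipase that frees cholesterol from its esters, had a log2 fold change of 0.01 (SE 0.17) and did not pass, while with total counts it was called lower (−0.55, edgeR adjusted p = 0.0491).

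Scarb2, an abundant protein of the limiting membrane, was the 1 membrane gene called lower, with a log2 fold change of −0.52 (edgeR SE 0.17, adjusted p = 0.0281). It ran from 107 to 141 CPM in Low and from 69.2 to 104 in High. The call was lost without Low Female2 (−0.44), Low Male2 (−0.50), High Female1 (−0.41) or High Male1 (−0.46), and without both libraries of Male2 (−0.50), with the same direction. Cd63, a tetraspanin of late endosomes and exosomes with a pseudogene copy (Cd63-ps) that could share its reads, was at 48.3, 34.4, 34.0 and 36.2 CPM in Low and at 42.7, 20.0, 32.6 and 13.2 CPM in High. Its fractions overlapped and it did not pass (−0.50, edgeR SE 0.30, adjusted p = 0.206), although by edgeR it was called lower with total counts (adjusted p = 0.0460), without a filter on low counts (0.0146) and with the label number as a covariate (0.0338). Between the High and Low libraries of the animals numbered 1 (Female1 and Male1) it differed by −0.07, and of those numbered 2 (Female2 and Male2) by −1.11.

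Of 9 sphingolipid hydrolases and their activators, 3 were higher, 1 was lower and 5 did not pass, with a median log2 fold change of 0.14. That is 33.3% higher and 11.1% lower, beside 23.4% and 25.3% of all genes. The balance turned with total counts, where 1 was higher (11.1%, against 12.6% of all genes) and 4 lower (44.4%, against 49.1%), with a median of −0.43. Smpd1 (chr7:105554360-105558389), the acid sphingomyelinase that turns sphingomyelin into ceramide, had the largest fold change of all members. Its level was 24.6, 33.4, 16.6 and 41.9 CPM in the Low libraries of Female1, Female2, Male1 and Male2, and 237, 280, 235 and 303 CPM in High. The lowest High library lay far above the highest Low one. The means were 29.1 ± 10.9 and 264 ± 33.1 CPM (SD, n = 4 each), a 9.07-fold difference with a log2 fold change of 3.18 (edgeR SE 0.29, adjusted p = 2.48e-05). With total counts the log2 fold change was 2.60, and it ran from 2.94 to 3.49 when each library was left out in turn. A larger positive fold change was found for 2.01% of all tested genes.

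Psap (chr10:60277627-60302597) encodes prosaposin, the precursor of the saposins that present sphingolipids to their hydrolases. Per kilobase of exon it was the most abundant member, with a mean of 222 CPM per kilobase, ahead of Lamp1 (177), Laptm4a (152), Smpd1 (43.9) and Lamp2 (36.6), while the lowest was Galns (0.733). Psap was at 514, 498, 501 and 545 CPM in Low and at 582, 671, 663 and 905 CPM in High. The fractions did not overlap, yet the log2 fold change of 0.45 (SE 0.17) lay close to the threshold (edgeR adjusted p = 0.0487) and was −0.13 with total counts. The call was lost when Low Female1 (0.44), Low Male1 (0.38), Low Male2 (0.45), High Female2 (0.43) or High Male2 (0.32) was left out, and also without both libraries of Female2 (0.47) or both of Male2 (0.39). Gm2a, the activator that lifts the ganglioside GM2 for its hydrolase, was higher by 0.49 (edgeR SE 0.15, adjusted p = 0.0199) and stood at −0.07 with total counts. It lost its call without Low Female1 (0.36), Low Female2 (0.52), Low Male1 (0.47) or High Female1 (0.43), and without both libraries of Female2 (0.52).

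Hexa, whose product takes part in the breakdown of that ganglioside, was lower by a log2 fold change of −0.65 (edgeR SE 0.15, adjusted p = 0.00497), at 14.2 to 17.8 CPM in Low and 9.05 to 11.1 in High. The animals numbered 1 gave −0.36 and those numbered 2 gave −0.89. The call was lost without both libraries of Female2 (−0.57) or both of Male2 (−0.49). Exons of Hexa share 12.8% of their bases with Tmem202 on the other strand.

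The other 5 genes of sphingolipid breakdown did not pass. Galc, the galactosylceramidase, had a log2 fold change of −0.41 (edgeR adjusted p = 0.0616). By edgeR it was called lower with total counts (−0.98, adjusted p = 0.00077), with the animal as a block (0.0239), with no covariate (0.0441), with a minimum of 10 counts (0.0354) or with the label number as a covariate (0.0263), and also without Low Female1 (−0.49), without High Female2 (−0.56) and without both libraries of Female2 (−0.50). Glb1, the acid beta-galactosidase, stood at −0.27, Arsa, the sulfatase of sulfatide (18.8% of its exon bases overlap C230037L18Rik), at −0.14, Asah1, the acid ceramidase, at 0.14 and Gla, the alpha-galactosidase, at 0.26. With total counts Glb1 (−0.87) and Arsa (−0.71) were called lower as well. Asah1 was at 29.5 to 36.6 CPM in Low and 32.0 to 48.5 in High, which overlapped.

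The enzymes of glycosaminoglycan breakdown had the lowest median of the 6 role groups, at −0.83. Of these 7 genes, 5 were lower (71.4%, against 25.3% of all genes), 1 was higher (14.3%, against 23.4%) and 1 did not pass. With total counts 6 were lower (85.7%, against 49.1%) and the remaining one did not pass. Gusb (chr5:129989011-130003049), the beta-glucuronidase, was at 10.9, 14.0, 10.6 and 13.1 CPM in Low and at 7.91, 4.27, 5.11 and 3.50 CPM in High. No High library reached the lowest Low library, and the log2 fold change was −1.24 (edgeR SE 0.24, adjusted p = 0.00197). Fitted apart, the animals numbered 1 gave −0.70 and those numbered 2 gave −1.80. The labels give this number no meaning. Other members also differed in this split, such as Gla (0.07 and 0.63) and Gm2a (0.70 and 0.33), while Npc1 hardly did (0.90 and 0.89). Sgsh (chr11:119343425-119355536), the N-sulfoglucosamine sulfohydrolase of heparan sulfate, was at 5.44, 11.8, 6.15 and 8.63 CPM in Low and at 3.32, 4.09, 3.51 and 4.84 CPM in High. Its fractions did not overlap, with a log2 fold change of −1.03 (edgeR SE 0.28, adjusted p = 0.0117), and 21.6% of its exon bases lie under Card14 on the other strand.

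Arsb, which removes sulfate from dermatan and chondroitin sulfate, was lower by −0.83 (edgeR SE 0.17, adjusted p = 0.00252), and 32.3% of its exon bases overlap Gm26527. Idua, the alpha-iduronidase, was lower by −0.71 (edgeR SE 0.16, adjusted p = 0.00438). Galns, the galactosamine 6-sulfatase, was lower by −0.91 (edgeR SE 0.24, adjusted p = 0.0119) at 1.03 to 2.84 CPM, and lost its call without Low Male1 (−0.80) and without both libraries of Female2 (−0.87). Ids, the iduronate 2-sulfatase, went the other way. It ran from 50.1 to 71.7 CPM in Low and from 73.3 to 146 in High, with a log2 fold change of 0.77 (edgeR SE 0.22, adjusted p = 0.0151) that was 0.18 and not past the test with total counts. Naglu, an enzyme of heparan sulfate breakdown, did not pass (−0.22), but was called lower with total counts (−0.79).

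Among 5 glycosidases of glycogen and glycoproteins, 1 was higher, 1 was lower and 3 did not pass. The share of 20% in either direction lay near the 23.4% and 25.3% of all genes. With total counts 1 was higher (20%, against 12.6%) and 3 lower (60%, against 49.1%). Fuca1 (chr4:135920735-135940311), the alpha-fucosidase, was at 23.7, 30.6, 26.9 and 33.4 CPM in Low and at 66.9, 71.1, 64.9 and 93.7 CPM in High. The fractions were well apart, and the log2 fold change was 1.37 (edgeR SE 0.16, adjusted p = 0.000104). Gaa, the acid alpha-glucosidase that degrades glycogen, was lower by −0.79 (edgeR SE 0.18, adjusted p = 0.00487) in 4 of 4 animals, although its highest High library (63.0 CPM) lay above its lowest Low library (58.3 CPM). Neu1 (0.06), Manba (−0.00) and Man2b1 (−0.04), a sialidase and a pair of mannosidases, did not pass. With total counts Man2b1 (−0.61) and Manba (−0.57) were called lower.

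The last group held a peptidase, a pair of thioesterases and progranulin, and 3 of these 4 were higher (75%, against 23.4% of all genes). With total counts 2 were higher (50%, against 12.6%) and 1 lower (25%, against 49.1%). Ppt1 (chr4:122836242-122859175) removes palmitate from proteins in the lysosome. It was at 23.2, 32.5, 25.7 and 38.4 CPM in Low and at 93.4, 128, 98.8 and 114 CPM in High, a log2 fold change of 1.86 (edgeR SE 0.19, adjusted p = 5.19e-05). Ppt2 (chr17:34616662-34628510), a thioesterase of the same family, was at 6.15, 8.77, 7.55 and 8.69 CPM in Low and at 21.8, 26.3, 24.6 and 26.6 CPM in High. Its log2 fold change was 1.67 (edgeR SE 0.16, adjusted p = 3.18e-05). Neither gene overlapped between the fractions, and 36.6% of the exon bases of Ppt2 are shared with Gm20460 on the same strand.

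Tpp1, the tripeptidyl peptidase, was higher by 0.51 (edgeR SE 0.15, adjusted p = 0.0190) with TMM and stood at −0.07 with total counts. Its call was lost without High Female2 (0.44) or High Male2 (0.43), and without both libraries of Male2 (0.51). Grn, which encodes progranulin, a glycoprotein cut into granulins in the lysosome, did not pass (0.15, SE 0.16), and was called lower with total counts (−0.43, edgeR adjusted p = 0.0175).

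Ratios of related genes within a library do not depend on how libraries are scaled, and 6 pairs of members are described, with p-values adjusted over the 8 pairs tested. The log2 ratio of Arsa to Arsb counts (each plus 2) was −0.56, −0.54, −0.60 and −0.34 in the Low libraries of Female1, Female2, Male1 and Male2, and 0.30, −0.15, 0.28 and 0.35 in their High libraries. The mean difference was 0.70, from −0.51 ± 0.11 to 0.19 ± 0.23 (SD, n = 4 each), and the ratio was higher in 4 of 4 animals. The two-sided exact permutation p was 0.0286, the smallest that 4 against 4 libraries can give, and 0.0762 after adjustment. This test takes the libraries as separate and ignores the pairing by animal. Sign flips within the 4 animals were run as an alternative. With so few animals they cannot give a p under 0.05, so they could not decide. The Lamp1 to Lamp2 ratio differed by 0.64, with the same exact p of 0.0286 and adjusted p of 0.0762. These ratios did not overlap between the fractions. For the other 4 pairs the differences were 0.32 (Npc1 to Npc2, exact p = 0.0571, adjusted p = 0.114), 0.20 (Ppt1 to Ppt2), −0.06 (Laptm4a to Laptm4b) and −0.06 (Man2b1 to Manba). With individual libraries, the difference between a High and a Low library ran from −0.54 to 0.23 for Laptm4a to Laptm4b and from −0.13 to 0.53 for Ppt1 to Ppt2. After adjustment 0 of the 6 pairs passed, and 2 had an unadjusted exact p under 0.05.

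**Figure D3:**
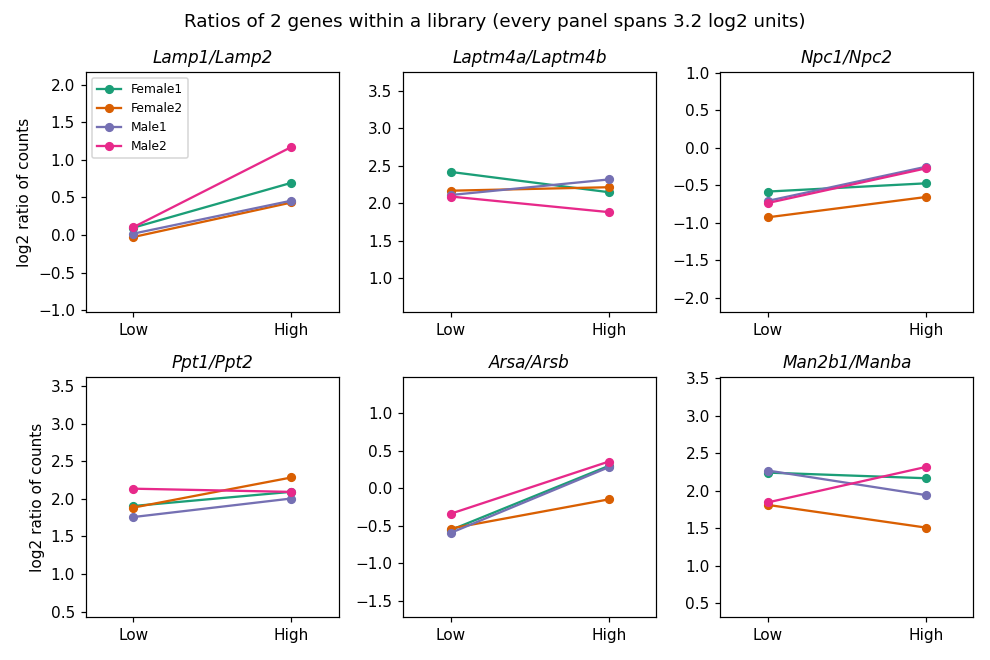
Log2 ratio of the counts of 2 genes in each library, for 6 pairs, with lines joining the fractions of 1 animal; every panel spans the same range of log2 units. The Arsa to Arsb ratio lies between −0.60 and −0.34 in Low and between −0.15 and 0.35 in High, while the ratios of the Laptm4 genes and of the mannosidases overlap.

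Other genes of the pathway were read from the same fit. Of 21 further hydrolases and activators, 11 were higher (52.4%, against 23.4% of all genes) and 4 lower (19.0%, against 25.3%), with a median log2 fold change of 0.43. Pld3, a lysosomal exonuclease of the phospholipase D family, was at 22.0 to 35.6 CPM in Low and 106 to 179 in High, a log2 fold change of 2.23 (edgeR SE 0.22, adjusted p = 3.63e-05). Scpep1, a serine carboxypeptidase, was higher by 1.59. With total counts, 6 of the 21 were higher (28.6%, against 12.6% of all genes) and 7 lower (33.3%, against 49.1%). Their median was then −0.15, where that of all tested genes was −0.64.

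Of 22 further membrane proteins and transporters, 21 were tested (not Mcoln3), 11 were higher (52.4%, against 23.4% of all genes) and 0 were lower by edgeR (25.3% of all genes were), with 1 lower at an unadjusted p under 0.05 and 0 by DESeq2 and limma-voom. With the animal as a block 2 of them were lower (28.5% of all genes were). Without Low Female1 also 2 were lower, and the share of all genes in that fit was not taken. With total counts 5 were higher (23.8%, against 12.6% of all genes) and 7 lower (33.3%, against 49.1%). The median was 0.64 with TMM and 0.08 with total counts. Tpcn1, an ion channel of endosomes and lysosomes, was higher by a log2 fold change of 2.27. Pqlc2, which exports cationic amino acids, was higher by 2.19, and Mfsd12, a lysosomal cysteine importer, by 1.36.

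Sulfatases need the formylglycine made by Sumf1, and many hydrolases are sorted with the mannose 6-phosphate tag or by sortilin. Of 14 genes of these steps, 8 were higher (57.1%, against 23.4% of all genes) and 3 lower (21.4%, against 25.3%), with a median of 0.62. With total counts 6 were higher (42.9%, against 12.6%) and 4 lower (28.6%, against 49.1%), with a median of 0.05. Sort1, which encodes sortilin, a receptor that carries prosaposin and acid sphingomyelinase to lysosomes, was at 7.11 to 23.2 CPM in Low and 138 to 217 in High. Its log2 fold change of 3.60 (edgeR SE 0.36, adjusted p = 3.99e-05) exceeded that of every member. Gga2, an adaptor for mannose 6-phosphate receptors at the Golgi, went the other way, from 34.2 to 48.2 CPM in Low to 5.75 to 7.41 in High, a log2 fold change of −2.74 (edgeR SE 0.17, adjusted p = 1.27e-05). Cln8, which helps the enzymes leave the endoplasmic reticulum, was higher, at 39.8 to 70.8 CPM in Low and 148 to 201 in High (edgeR adjusted p = 0.000112). Sumf1 did not pass (0.30).

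**Figure D4:**
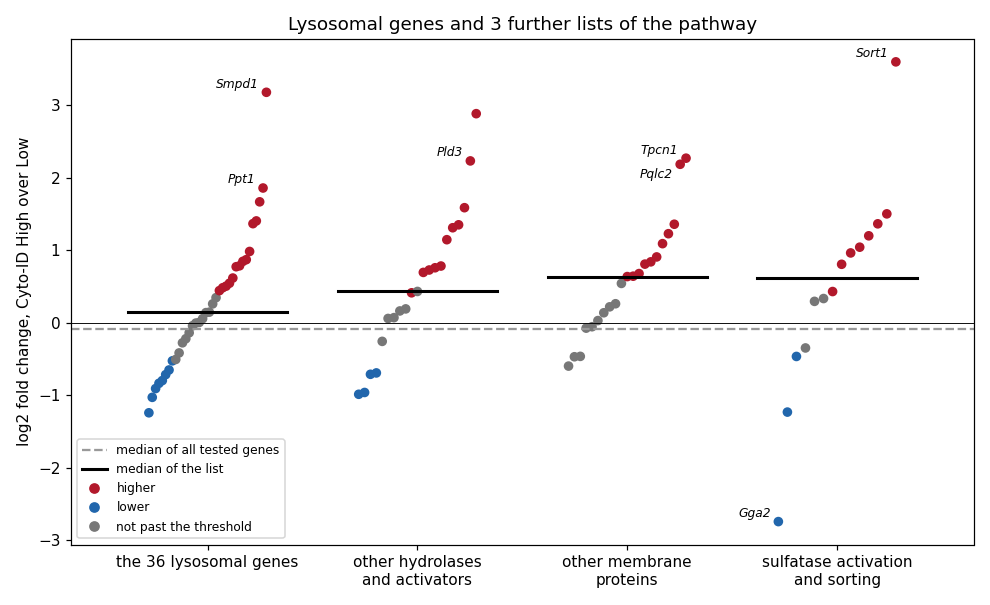
Log2 fold change (Cyto-ID High over Low, TMM scaling) of every tested gene of the 36 members and of the 3 further lists, with black bars for the list medians (0.15, 0.43, 0.64 and 0.62) and a dashed line for the median of all tested genes (−0.09). Red and blue points are genes higher or lower at an adjusted p under 0.05, and Sort1 (3.60) and Gga2 (−2.74) mark the ends of the range.

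The counts of members were also taken without the libraries that stood apart. Without both libraries of Female2, whose gastric markers were high, 13 members were higher and 7 lower, where 21.6% and 21.7% of all genes were. Without both of Male2, whose High library was lowest in stromal and leukocyte markers, 13 were higher and 6 lower, where 20.4% and 20.7% of all genes were. The 5 genes with a mean of at least 10 CPM whose log2 CPM followed the mean standardised profile of the members most closely over the 8 libraries were Bri3bp (Pearson r = 0.98), Pnkd (0.97), Jkamp (0.96), Ak3 (0.96) and Kdelr1 (0.96), given as a description without a test.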

How the data were processed

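The authors deposited raw counts per gene symbol for 8 libraries. Per the submitters' processing notes, STAR 2.7.3, DESeq2 and the GRCm38 build were used, and the counting tool, annotation and strandedness are not given in the sources used here. Each column was assigned by the animal and fraction in its name. The members, lists, tests and alternatives were chosen with earlier results of these data known.

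The fit used edgeR 4.0.16 in R 4.3.3 (filterByExpr, TMM, glmQLFit, glmQLFTest, sex as covariate, two-sided tests, 17344 genes). Ratios used counts plus 2 and an exact permutation test, adjusted over 8 pairs, and 2 of these pairs and 1 gene of a further list are not reported here. All 36 members are reported. Full values are given for those called with an absolute log2 fold change of at least 1 and for the 5 most abundant per kilobase. Of each further list, the called genes among the 3 with the largest change are named, and Cd68 and Sumf1 were added after their values were seen, as were the per-library values of Cd63. The marker Cblif was listed under its older symbol, Gif. Exon lengths, positions and overlaps came from GENCODE M21 (GRCm38) and promoters from RefSeq (GRCm38.p6).

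The fractions of an animal share its name, and the pairing was taken from it. Across genes, their deviations from the fraction means correlated at 0.43 (Female1), 0.32 (Female2), −0.02 (Male1) and 0.28 (Male2), and between different animals at −0.37 to 0.35. Alternatives were RLE size factors, total counts, DESeq2 1.42.0, limma-voom (3.58.1), robust dispersion, no filter, a minimum of 10 counts per library, no covariate, the animal as a block and each library left out. Added after the data were seen were leaving out both libraries of Female2 or of Male2 and the label number as a covariate. Separate fits of the animals by label number were made for all members and are described for only a few of them. On simulated counts for this comparison (16979 genes, 192 changed by 1.5 on the log2 scale), 72.9% of changed genes were recovered and 5 others were called. PCR duplicates cannot be told from separate molecules, and total counts per library limit the precision of genes at a few CPM.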

Additional observations from a re-analysis of the deposited data

Results flagged for a closer look

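Among 84 groups of 4 libraries (the CPM of each of the 36 members and the 6 ratios, in either fraction), 4 held a highest or lowest library whose gap to the nearest other, as a share of the range of its group, exceeded Dixon's critical value for 4 samples. That value is set so that chance exceeds it in about 1 of 20 groups. Cd63 in Low Female1 was at 48.3 CPM, against 34.0 to 36.2 in the other Low libraries. Cln3 in High Male2 was at 16.9 CPM, against 12.3 to 12.5. Lipa in Low Female2 was at 7.92 CPM, against 5.81 to 6.10. The log2 ratio of Arsa to Arsb in High Female2 was −0.15, against 0.28 to 0.35 in the other High libraries.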

How the results depend on the processing

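Scaling had the largest effect. With total counts, 7 members were higher and 17 lower (15 and 8 with TMM), 6 further hydrolases were higher and 7 lower, 5 further membrane genes were higher and 7 lower, and 6 sorting genes were higher and 4 lower. The sign turned for Lamp2 (−0.22), Npc2 (−0.021), Lipa (−0.55), Psap (−0.13), Gm2a (−0.072), Gla (−0.28), Asah1 (−0.43), Neu1 (−0.48), Tpp1 (−0.074) and Grn (−0.43), of which Lipa and Grn were called lower. With the animal as a replicate block, 15 members were higher (25.4% of all genes were) and 9 lower (28.5%), with Galc added, and 2 further membrane genes were lower in place of 0. No other member's call changed with the block. With the label number as a covariate 15 members were higher (25.6% of all genes) and 10 lower (28.9%), with Cd63 and Galc added, and 1 further membrane gene was lower. Without a filter 12 members were higher (11.5% of all genes) and 9 lower (13.5%), with Psap, Gm2a and Tpp1 lost and Cd63 added. No covariate (24.0% and 26.1% of all genes) and a minimum of 10 counts (28.3% and 29.6%) gave 15 and 9, with Galc added. RLE size factors, robust dispersion, DESeq2 and limma-voom gave 15 (23.4 to 25.8% of all genes) and 8 (23.4 to 25.4%).

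Leaving out each library in turn gave 13 to 15 members higher and 7 to 9 lower. The share of all tested genes called in these fits was not taken. These counts, and those of the further lists below, therefore cannot be set against it. The further hydrolases ran from 10 to 12 higher with 4 lower, the membrane genes from 9 to 10 higher and 0 to 2 lower, and the sorting genes from 7 to 8 higher and 2 to 3 lower. Members near 0 changed sign, none of them called. Their log2 fold changes over the libraries left out ran from −0.094 to 0.12 (Lipa), −0.022 to 0.22 (Asah1), −0.13 to 0.017 (Man2b1), −0.15 to 0.12 (Manba) and −0.017 to 0.16 (Neu1). Ratios between the fractions that changed sign ran from −0.115 to 0.030 (Laptm4a to Laptm4b) and −0.17 to 0.10 (Man2b1 to Manba); the other 4 described kept theirs. With a library left out, no described ratio passed the exact permutation test after adjustment over the 8 pairs (lowest adjusted p 0.0571). The unadjusted exact p of Lamp1 to Lamp2 was 0.0286 throughout, the smallest that 35 assignments can give. From that smallest value it ran up to 0.0571 for Arsa to Arsb, 0.114 for Npc1 to Npc2 and 0.229 for Ppt1 to Ppt2. Under the remaining alternatives the sign turned for Lipa (−0.036 without a filter, −0.0060 with at least 10 counts), Arsa (0.0053 without Female2), Man2b1 (0.028 with RLE, 0.028 with DESeq2, 0.060 without Female2) and Manba (0.059 with RLE, 0.059 with DESeq2, 0.0038 with limma-voom, 0.010 with the block, 0.015 with the label number, 0.018 without Female2 and 0.147 without Male2).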

Other observations

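Whether the difference between the fractions depended on sex was tested with an interaction term, over 2 female and 2 male animals. By edgeR, 0 of 36 members and 0 of 17344 tested genes passed after adjustment, and 0 members and 19 genes had an unadjusted p under 0.05. The smallest unadjusted p among the members was 0.254. Without any dependence, a calibrated test would put about a share of 0.05 of the genes under that level, and 19 of 17344 is far fewer. The test was thus conservative and could hardly show a dependence on sex. With the animal as a block, 0 genes passed after adjustment, and the smallest unadjusted p among the members was 0.216.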
